A study of Mus musculus with 24 samples.

Results

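Astrocytes answer transmitters with calcium, and 10 genes of that response were described here across 24 mouse RNA-seq libraries. They were chosen by name: the metabotropic glutamate receptor genes Grm3 and Grm5, the ATP and ADP receptor gene P2ry1, the noradrenaline receptor genes Adra1a and Adra1b, the endothelin receptor gene Ednrb, the inositol trisphosphate (IP3) receptor genes Itpr1, Itpr2 and Itpr3, and the calcium pump gene Atp2a2. All 10 were found among the 49671 genes counted, and all 10 were among the 19691 genes with enough counts to be tested. The 6 groups had 4 libraries each. Neural stem cells (NSC) had been derived from 1 C57BL/6N mouse embryonic stem cell line and were grown in FGF and EGF at 20 ng/ml each. The cells called AGES, astrocytes made from this line, were the NSCs after 3 to 5 days in 20 ng/ml BMP4. Both groups thus come from a single line, at passages 50 to 60. AGES were reseeded from gelatin onto poly-ornithine and laminin, in the NSC base medium described with BMP4 and without FGF and EGF. Between NSCs and AGES, the effects of BMP4, loss of these factors and coating therefore cannot be told apart. Primary astrocytes came from C57BL/6J mice of both sexes, either neonatal (neoAC, 4 to 8 days old) or adult (AdAC, 100 to 140 days old), and were taken from brain by magnetic sorting on the astrocyte surface antigen ACSA-2. They were snap-frozen at once (neoAC direct and AdAC direct) or grown for 7 to 10 days in astrocyte medium (neoAC CellC and AdAC CellC). This medium was not that of AGES, so medium and cell source cannot be told apart between AGES and primary cultures. Each primary replicate was a separate isolation of 2 pooled mice, and each NSC or AGES replicate a culture of another passage. Neonatal and adult brains were dissociated with different kits, and only the adult protocol removed debris and red blood cells. Neonatal cells came from cerebral tissue freed of meninges, and for direct adult isolation the olfactory bulb and cerebellum were taken off. Whether this was also done for adult cultures is not stated. Kit, dissection and age therefore cannot be told apart.

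Receptors coupled to the G protein Gq activate phospholipase C, which makes IP3, and IP3 opens the channels encoded by the Itpr genes in the membrane of the endoplasmic reticulum. Calcium then leaves this store for the cytosol, and the SERCA pumps of the Atp2a family return it. In astrocytes this route answers glutamate, ATP, noradrenaline and endothelin, and the IP3 receptor encoded by Itpr2 is usually regarded as the main one. Grm3 is the exception among the receptors, since it encodes a receptor coupled to Gi, which lowers cyclic AMP. The study also imaged calcium after ATP in its cultured cells, and those recordings were not used here.

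Library totals lay between 27904126 and 37997368 counts, and levels are TMM-scaled CPM (counts scaled to a common library size), given as mean ± SD over 4 libraries. Within each group the libraries correlated at 0.985 to 0.994 over genes, on log2 CPM. The summed level of 11 astrocyte markers was 55390 to 60340 CPM in AGES, 21810 to 24640 in neoAC direct, 16600 to 17420 in AdAC direct and 7631 to 8844 in neoAC CellC. The AGES sum was mostly Gfap, at 50500 ± 1883 CPM. Without Gfap the other 10 markers summed to 6453 to 7399 CPM in AGES, 20270 to 22890 in neoAC direct and 16440 to 17250 in AdAC direct, and the markers Aldh1l1 and Gja1 had means of 15 and 10.3 CPM in AGES. In AdAC CellC the sum of all 11 was 1004 to 1522 CPM, below the 2019 to 2547 CPM of NSCs, and Gjb6 was under 1 CPM in AdAC CellC, AGES and NSCs. AdAC CellC also had the highest sums of 6 fibroblast markers, at 1009 to 1439 CPM, and of 6 mural cell markers, at 873 to 1042 CPM. The 8 oligodendrocyte markers summed to 26880 to 29750 CPM in AdAC direct and 4380 to 11190 CPM in AdAC CellC, against at most 398 CPM in a library of any other group. These are bulk samples, in which fewer cells of a type and less RNA per cell cannot be told apart, and the part of these other cells in the results was not tested.

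RefSeq promoter windows of 300 bases (250 before the start to 50 after it, build GRCm38.p6) were found for 6 of the 10 genes, Grm3, P2ry1, Adra1b, Ednrb, Itpr2 and Itpr3, and not for Grm5, Adra1a, Itpr1 and Atp2a2. The windows of Grm3 (chr5:9725303-9725602, minus strand), Ednrb (chr14:103843652-103843951, minus), Itpr2 (chr6:146502174-146502473, minus) and P2ry1 (chr3:61002535-61002834, plus) are shown because the first 3 genes were lower after culture at both ages while P2ry1 was higher. Positions count from the RefSeq start, which for Grm3 and Ednrb is not the upstream end of the gene span given below. The Grm3 window lies wholly outside that span and the Ednrb window wholly inside it. Capitals mark matches to the motifs searched, on either strand.
Grm3: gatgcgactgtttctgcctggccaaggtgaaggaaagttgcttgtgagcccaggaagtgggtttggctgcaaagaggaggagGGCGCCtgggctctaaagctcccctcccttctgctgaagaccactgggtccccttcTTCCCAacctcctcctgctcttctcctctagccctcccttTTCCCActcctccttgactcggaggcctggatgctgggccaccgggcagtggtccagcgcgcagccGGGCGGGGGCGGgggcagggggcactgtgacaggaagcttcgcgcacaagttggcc
Ednrb: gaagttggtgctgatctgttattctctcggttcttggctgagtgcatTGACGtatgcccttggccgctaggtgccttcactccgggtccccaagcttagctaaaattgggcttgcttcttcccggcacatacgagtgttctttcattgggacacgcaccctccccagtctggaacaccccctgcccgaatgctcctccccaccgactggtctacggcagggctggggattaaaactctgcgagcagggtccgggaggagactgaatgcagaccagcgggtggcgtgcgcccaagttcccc
Itpr2: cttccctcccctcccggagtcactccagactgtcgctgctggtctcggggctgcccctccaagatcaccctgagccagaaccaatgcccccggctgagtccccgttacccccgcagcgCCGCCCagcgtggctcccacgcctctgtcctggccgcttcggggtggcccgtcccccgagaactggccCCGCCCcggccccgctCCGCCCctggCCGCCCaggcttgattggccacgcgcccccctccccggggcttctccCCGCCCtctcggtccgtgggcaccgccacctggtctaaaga
P2ry1: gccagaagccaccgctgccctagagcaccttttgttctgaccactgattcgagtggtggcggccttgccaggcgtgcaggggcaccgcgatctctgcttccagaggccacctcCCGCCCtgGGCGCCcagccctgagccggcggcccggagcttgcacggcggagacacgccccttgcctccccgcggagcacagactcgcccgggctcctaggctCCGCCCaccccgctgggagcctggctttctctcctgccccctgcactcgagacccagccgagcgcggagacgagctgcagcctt
The SP letters GGGCGG, present in 35.7% of 32851 promoter windows of this length, were found 5 times in the Itpr2 window and at both marked CCGCCC runs of P2ry1. In the Grm3 window they stood directly side by side at positions -6 and 1. The RBPJ letters TGGGAA (25.6% of windows) were in the Grm3 window at -112 and -72, and the SMAD letters GGCGCC (11.9%) were in those of Grm3 and P2ry1. The Ednrb window held only the CRE letters TGACG (20.8%), at -203. The other letters searched were in none of these 4 windows: NFI TTGGCA (14.1% of all windows), SOX ACAATG (12.6%), AP-1 TGANTCA (7.81%), STAT TTCNNNGAA (8.30%), the SMAD palindrome GTCTAGAC (0.213%) and TATAAA (13.6%). No 2 of the matches shown overlapped. The windows of Itpr2 and P2ry1 were 73.3% and 70.7% G and C, those of Grm3 and Ednrb 63.7% and 58.7%, and the median window 52.7%.

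Grm3 (chromosome 5, 9485541 to 9725170) was highest in directly isolated cells. Its level was 521, 499, 517 and 515 CPM in the 4 neoAC direct libraries and 283, 287, 287 and 311 CPM in AdAC direct. Culture brought it to 10.5 to 15.3 CPM in neonatal cultures and to 7.67 to 10.7 CPM in adult ones. Every cultured library was thus far below every directly isolated one of its age. The level fell 37.8-fold in neonatal cells (log2 fold change -5.24 ± 0.15 SE, adjusted p = 3.97e-19) and 30.4-fold in adult cells (-4.93 ± 0.15, adjusted p = 2.63e-19). The changes at the 2 ages differed by 0.32 ± 0.19 on the log2 scale, which did not pass the test (adjusted p = 0.134). NSCs held 13.5 to 20.1 CPM and AGES 1.68 to 3.19 CPM, so AGES were lowest of all 6 groups and did not overlap any of them. AGES were 7.05-fold below NSCs (adjusted p = 2.78e-14), 6.00-fold below neoAC CellC (adjusted p = 1.10e-13) and 4.25-fold below AdAC CellC (adjusted p = 9.51e-12). Its close relative Grm2, which encodes the other receptor of this class, stayed at or below 1.27 ± 0.31 CPM in each group.

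**Figure D1:**
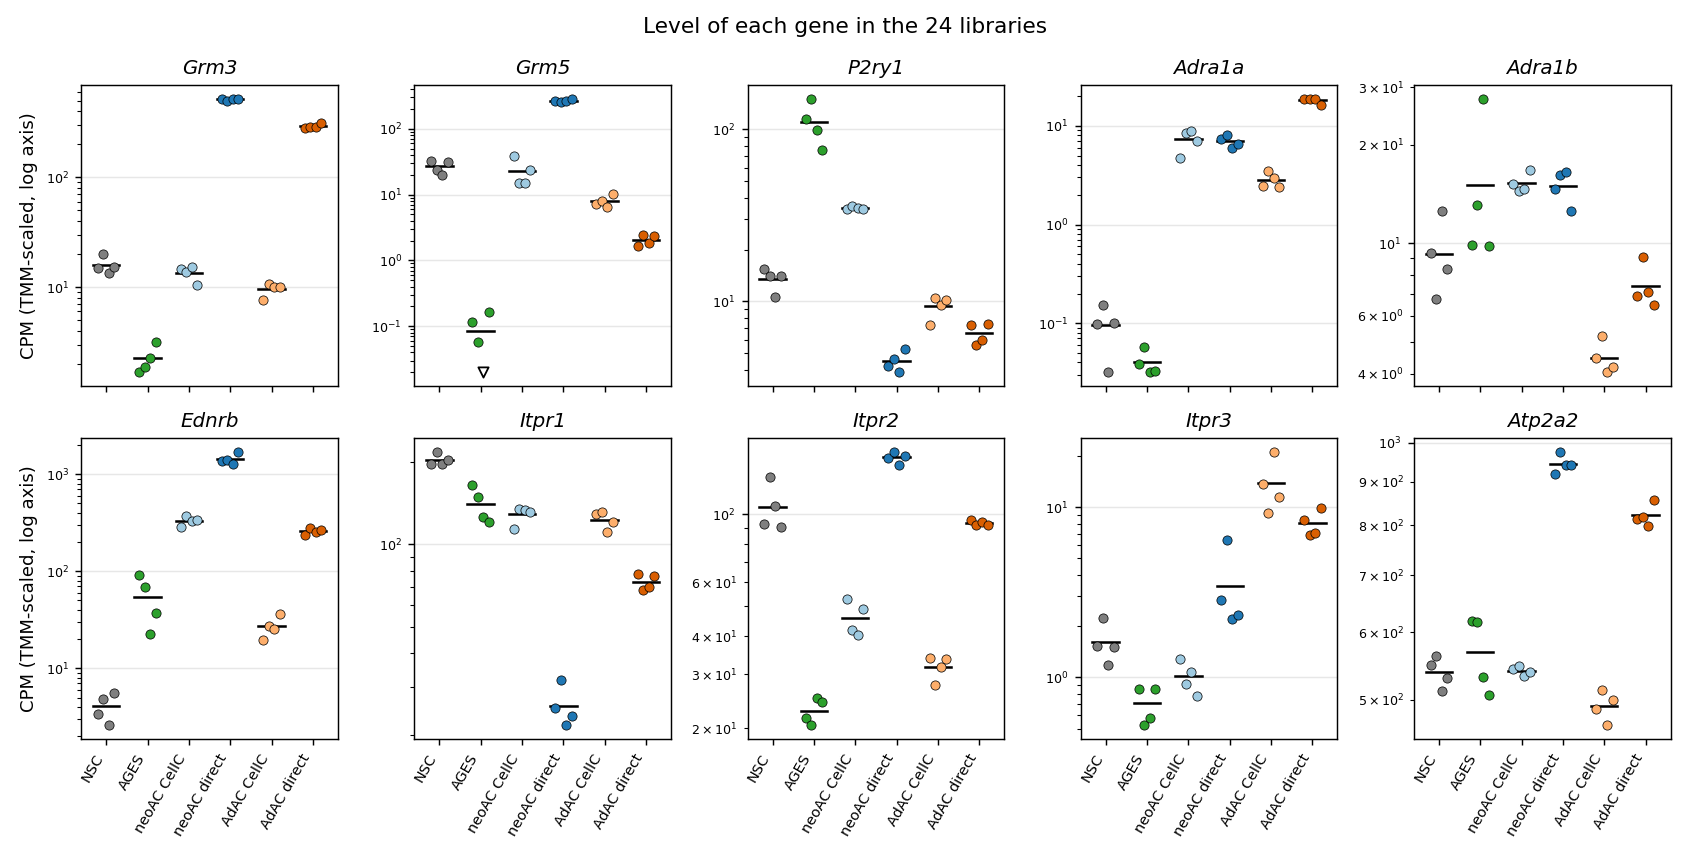
Level of each of the 10 genes in the 24 libraries, in TMM-scaled CPM on a log axis that differs between panels; points are libraries, bars are group means, and the open triangle is the AGES library in which Grm5 had 0 counts. Grm3 was at 283 CPM or more in each directly isolated library and at 20.1 CPM or less in each of the others, while P2ry1 was highest in AGES.

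Grm5 (chromosome 7, 87584168 to 88134907), the Gq-coupled glutamate receptor gene, separated the 2 ages of directly isolated cells. It was at 266, 253, 267 and 288 CPM in neoAC direct and at 1.63, 2.44, 1.87 and 2.31 CPM in AdAC direct. That was a 129-fold difference (log2 fold change 7.01 ± 0.31, adjusted p = 2.90e-15). Culture moved the level in opposite directions. In neonatal cells it fell 11.6-fold to 39, 15, 14.9 and 23.9 CPM (-3.54 ± 0.25, adjusted p = 1.82e-11), and in adult cells it rose 3.84-fold to 7.21, 7.90, 6.48 and 10.4 CPM (1.94 ± 0.29, adjusted p = 1.89e-06). The 2 changes differed by 5.48 ± 0.37 on the log2 scale (adjusted p = 1.06e-11). After culture the neonatal level was still 2.90-fold above the adult one (adjusted p = 8.61e-06), and no library of one overlapped the other. NSCs had 20.3 to 33.0 CPM, and their mean did not differ from that of neoAC CellC beyond the spread (adjusted p = 0.371).

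AGES had almost no Grm5 reads, with 3, 2, 0 and 5 counts in the 4 libraries, at or near the 3 counts taken here as the floor. Summed over the group these 10 counts stood against 3367 in NSCs, a ratio of 328 after scaling, with a 95% exact interval of 178 to 685. The same ratio was 275 (150 to 575) for neoAC CellC and 96.6 (52.3 to 202) for AdAC CellC. These intervals cover counting error only. Of other metabotropic glutamate receptor genes, Grm4 was at 36.8 ± 20 CPM in AGES against 4.21 ± 0.30 CPM or less elsewhere, and Grm7 was highest in AdAC direct, at 20.9 ± 1.7 CPM. Grm6 and Grm8 did not exceed a mean of 4.45 ± 1.24 CPM in any group.

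P2ry1 (chromosome 3, 61002795 to 61008982) encodes the Gq-coupled receptor for ADP and ATP, and AGES had the most of it. Its level was 114, 151, 99.6 and 75.8 CPM in AGES, 34.3 to 35.7 CPM in neoAC CellC, 10.5 to 15.5 CPM in NSCs, 7.31 to 10.4 CPM in cultured adult cells, 5.56 to 7.39 CPM in AdAC direct and 3.87 to 5.26 CPM in neoAC direct. The lowest AGES library lay above every library of the other 5 groups, and all neighbours in this order differed by the test. AGES were 8.13-fold above NSCs (log2 fold change 3.02 ± 0.16, adjusted p = 1.38e-14), 11.8-fold above AdAC CellC (adjusted p = 5.25e-16) and 3.16-fold above neoAC CellC (adjusted p = 4.01e-10). In culture the neonatal level rose 7.75-fold (2.95 ± 0.17, adjusted p = 1.19e-13). The adult level rose 1.43-fold (0.51 ± 0.17, adjusted p = 0.00706) with overlapping libraries. The difference between these changes was -2.44 ± 0.24 (adjusted p = 1.53e-09). Age therefore read in opposite directions: directly isolated neonatal cells were 1.46-fold below adult ones (adjusted p = 0.00747), and cultured neonatal cells 3.73-fold above cultured adult ones (adjusted p = 1.90e-10). Exons of Gm37035 overlap this gene by 992 bases on the opposite strand. Gm37035 itself had 20 to 62 counts in AGES and at most 33 in any library of the other groups, where P2ry1 had 2304 to 5201 counts in AGES.

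Other receptors for ATP and adenosine gave a different picture. Adora1, the adenosine receptor gene coupled to Gi, was also highest in AGES, at 739 ± 93 CPM, against 41.1 ± 6.8 CPM in AdAC CellC. P2rx7 was between 29.1 ± 5.7 CPM in AGES and 65.7 ± 3.6 CPM in AdAC direct. P2ry2, another Gq-coupled nucleotide receptor gene, was highest in AdAC CellC at 15.6 ± 0.9 CPM and at 1.98 ± 0.81 CPM in AGES. P2rx6 was at 50.8 ± 7.5 CPM in neonatal cultures, at 50.4 ± 2.5 CPM in AdAC direct and at 12.4 ± 2.1 CPM or less elsewhere. P2rx4, a gene for an ATP-gated channel, was at 40.5 ± 2.0 CPM in AdAC direct, 29.3 ± 1.5 CPM in AdAC CellC and 22.4 ± 3.7 CPM in AGES. P2ry12, a microglial marker, did not exceed 3.96 ± 0.47 CPM.

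Of the noradrenaline receptor genes, Adra1a (chromosome 14, 66635251 to 66771168) was near the floor outside the primary cells. It was at 18.7, 18.6, 18.9 and 16.3 CPM in AdAC direct and 2.49, 3.50, 2.98 and 2.39 CPM in AdAC CellC. That was a fall of 6.37-fold in culture (log2 fold change -2.67 ± 0.18, adjusted p = 6.86e-13). In neonatal cells no change was detected. The neoAC direct libraries had 7.28, 8.03, 5.95 and 6.59 CPM, and the neoAC CellC libraries 4.71, 8.52, 8.95 and 6.98 CPM (0.07 ± 0.17, adjusted p = 0.743). The 2 changes differed by -2.74 ± 0.24 (adjusted p = 3.13e-10). Adult cells were thus 2.60-fold above neonatal ones when directly isolated (adjusted p = 6.77e-08) and 2.57-fold below them in culture (adjusted p = 2.63e-07). AGES had 1, 2, 1 and 1 counts and NSCs 3, 5, 1 and 3. The ratio of summed counts to AGES was 180 (95% exact interval 76.7 to 555) for neoAC CellC and 69.4 (29.5 to 215) for AdAC CellC. For NSCs against AGES no fold is given, since both were near the floor.

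Adra1b (chromosome 11, 43774606 to 43901210) varied less. Its mean was 15.3 ± 1.0 CPM in neoAC CellC, 15.1 ± 8.5 CPM in AGES, 15 ± 1.8 CPM in neoAC direct, 9.24 ± 2.45 CPM in NSCs, 7.39 ± 1.14 CPM in AdAC direct and 4.47 ± 0.52 CPM in AdAC CellC. The first 3 groups in this order did not differ beyond their spread, nor did NSCs and AdAC direct (adjusted p = 0.213). Adult cells were lower than neonatal ones both directly (2.02-fold, adjusted p = 0.000555) and in culture (3.41-fold, adjusted p = 9.60e-07). Culture lowered the adult level 1.65-fold (adjusted p = 0.0106) and left the neonatal mean within 0.03 ± 0.23 log2 (adjusted p = 0.928). The 4 AGES libraries had 9.87, 13.1, 27.7 and 9.78 CPM, and the high replicate 3 carried the call against NSCs. That call was 0.71 ± 0.24 with it (adjusted p = 0.0107) and 0.24 without it (adjusted p = 0.217), and it was also lost with only the compared groups in the fit (adjusted p = 0.0599). Against neoAC CellC the difference was -0.01 ± 0.23 with it (adjusted p = 0.966) and -0.48 without it, which passed the test (adjusted p = 0.0127). Adra1d, the remaining gene of this class, was at 11.4 ± 1.5 CPM in AdAC CellC and 6.72 ± 2.02 CPM in neoAC CellC, against 0.248 ± 0.12 CPM in AdAC direct and 0.247 ± 0.11 CPM in neoAC direct.

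Ednrb (chromosome 14, 103814625 to 103844402), the endothelin receptor gene, had the highest level per kilobase of exon of the 10 genes in neoAC direct, at a mean of 336 CPM per kb. It was at 1375, 1401, 1262 and 1697 CPM in neoAC direct and 238, 279, 256 and 269 CPM in AdAC direct. The cultured libraries had 286, 370, 327 and 337 CPM at the neonatal and 19.5, 27.2, 25.2 and 35.9 CPM at the adult age. No library of one of these 4 groups overlapped neoAC direct or AdAC CellC. NeoAC CellC lay above AdAC direct with no overlap of libraries, but the difference of 1.27-fold did not pass the test (adjusted p = 0.268). Culture lowered the level 4.34-fold in neonatal cells (log2 fold change -2.12 ± 0.29, adjusted p = 9.83e-07) and 9.66-fold in adult cells (-3.27 ± 0.30, adjusted p = 1.53e-09). The adult change minus the neonatal one was -1.15 ± 0.39 (adjusted p = 0.0131). Neonatal cells were higher than adult ones at 5.51-fold when directly isolated (adjusted p = 1.04e-07) and 12.2-fold in culture (adjusted p = 9.10e-10).

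In the stem cell line, Ednrb rose 13.4-fold from NSCs to AGES (3.75 ± 0.33, adjusted p = 7.61e-10). The NSC libraries had 3.39, 4.83, 2.58 and 5.52 CPM and the AGES libraries 91.6, 68.1, 22.6 and 37.2 CPM. The groups did not overlap, and the AGES libraries spread over a wide range. AGES were 6.02-fold below neoAC CellC (adjusted p = 4.52e-08) and 2.03-fold above AdAC CellC (adjusted p = 0.00262), with an overlap in the second case. The second receptor gene, Ednra, was between 4.86 ± 0.81 CPM in AGES and 24.9 ± 5.0 CPM in neoAC direct. Per kb of exon it lay above Ednrb in NSCs, at 1.69 against 0.956 CPM per kb, and below it in the other 5 groups. Of the ligand genes, Edn1 was at 17.1 ± 3.1 CPM in AdAC CellC and 2.19 ± 0.54 CPM or less elsewhere, and Edn3 at 9.29 ± 2.89 CPM in neoAC CellC. Edn2 was below 0.1 CPM in each group.

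The IP3 receptor genes changed places between directly isolated and cultured cells. Itpr1 (chromosome 6, 108213096 to 108551109) was at 25.0, 31.9, 21.7 and 23.4 CPM in neoAC direct and 77.9, 67.8, 69.6 and 76.7 CPM in AdAC direct. It rose to 114, 135, 134 and 132 CPM in neoAC CellC (5.05-fold, log2 fold change 2.34 ± 0.11, adjusted p = 2.11e-15) and to 130, 131, 111 and 121 CPM in AdAC CellC (1.69-fold, 0.76 ± 0.10, adjusted p = 3.71e-07). The adult change minus the neonatal one was -1.58 ± 0.15 (adjusted p = 8.77e-10). The 2 cultures reached levels that did not differ beyond their spread (0.06 ± 0.10, adjusted p = 0.610), while the directly isolated adult level was 2.86-fold above the neonatal one (adjusted p = 3.17e-12). NSCs had the highest level, 197 to 219 CPM, and AGES 121 to 166 CPM, a fall of 1.45-fold (adjusted p = 5.35e-05). AGES did not differ from neoAC CellC (adjusted p = 0.263) or AdAC CellC (adjusted p = 0.0945) by the test. The difference from AdAC CellC passed without a filter (0.31, adjusted p = 0.00931) and with only the compared groups (0.29, adjusted p = 0.0225). It also passed without AGES replicate 4 (0.26, adjusted p = 0.0343), and it was -0.03 with library sizes alone.

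Itpr2 (chromosome 6, 146108299 to 146502223) went the other way. It was at 153, 160, 145 and 155 CPM in neoAC direct and 95.4, 92.5, 94.4 and 92.3 CPM in AdAC direct. In culture it was at 52.7, 41.7, 40.3 and 49.2 CPM in neonatal cells and 34.0, 27.7, 31.8 and 33.7 CPM in adult cells. No cultured library reached a directly isolated one. The falls were 3.33-fold (-1.74 ± 0.11, adjusted p = 2.55e-13) and 2.95-fold (-1.56 ± 0.11, adjusted p = 8.56e-13), and their difference of 0.18 ± 0.15 did not pass the test (adjusted p = 0.293). The neonatal level was above the adult one both directly (1.63-fold, adjusted p = 1.04e-06) and in culture (1.45-fold, adjusted p = 8.25e-05). In the stem cell line it fell 4.62-fold, from 90.7 to 132 CPM in NSCs to 20.5 to 25.1 CPM in AGES (-2.21 ± 0.11, adjusted p = 1.77e-15). AGES were the lowest group, 2.01-fold below neoAC CellC (adjusted p = 4.07e-09) and 1.39-fold below AdAC CellC (adjusted p = 0.000263).

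Itpr3 (chromosome 17, 27057304 to 27122223) had the lowest level per kb of the 3 in each group and was highest in adult cells. It was at 13.7, 9.30, 21.1 and 11.5 CPM in AdAC CellC, 8.41, 6.86, 7.04 and 9.87 CPM in AdAC direct and 2.86, 6.42, 2.21 and 2.33 CPM in neoAC direct. The remaining groups had means of 1.62 ± 0.45 CPM for NSCs, 1.01 ± 0.22 CPM for neoAC CellC and 0.703 ± 0.18 CPM for AGES. Cultured adult cells stood apart from cultured neonatal ones by 13.8-fold (adjusted p = 1.97e-10) and from AGES by 19.9-fold (adjusted p = 1.66e-11), with no overlap. In neonatal cells culture lowered the level 3.44-fold (-1.78 ± 0.32, adjusted p = 2.71e-05). In adult cells it was higher by 1.73-fold after culture (0.79 ± 0.27, adjusted p = 0.0106), but the libraries overlapped, and without AdAC CellC replicate 3 the value was 0.53 with an adjusted p of 0.0819. The changes at the 2 ages differed by 2.57 ± 0.42 (adjusted p = 7.33e-06).

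Marker sums of other cells went with Itpr3 in some places and against it in others. The neoAC direct library with 6.42 CPM of Itpr3, replicate 2, also had the highest sum of 6 endothelial markers in its group, 356 CPM against 91.2 to 141 CPM, and of 7 microglial markers, 55.7 CPM against 11 to 19.8 CPM. The mural sum of this library, 516.8 CPM against 238.6 to 333.4 CPM, was the highest of its group too. So was its oligodendrocyte sum, 397.9 CPM against 324.1 to 331.7 CPM. Its fibroblast sum, 240.1 CPM, was not. Without this library the neonatal fall in culture was -1.29 and the age difference between directly isolated cells -1.70 in place of -1.21. AdAC CellC, the group highest in Itpr3, was also the group highest in the mural and fibroblast sums. Its replicate 3, with the most Itpr3, had the lowest mural sum of its group and the highest oligodendrocyte sum, 11190 CPM. Itpr3 fell from neoAC direct to neoAC CellC. The mean endothelial sum fell there from 180 to 52.6 CPM and the microglial one from 25 to 6.18 CPM. The mean fibroblast sum rose there from 220 to 446 CPM, and the mural one from 344.5 to 480 CPM with overlapping libraries. AdAC direct, next after AdAC CellC in Itpr3, had a mean fibroblast sum of 89.3 CPM, below both neonatal groups. The part of these cells in the Itpr3 values was not tested. The genes Itpr3os and Mir7677, which overlap Itpr3, had 0 counts in every library. Those that overlap Itpr1, Gm44040 and Gm44101, had at most 18 counts.

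Per kilobase of exon the 3 genes could be set beside each other. Itpr2 made up 85.5% ± 2.7 of their summed level in neoAC direct and 56.5% ± 2.1 in AdAC direct, and Itpr1 11.4% ± 1.2 and 35.5% ± 1.1. In culture the order was the reverse, with Itpr1 at 68.6% ± 4.3 in neoAC CellC and 64.7% ± 5.6 in AdAC CellC. The share of Itpr1 was 60.6% ± 3.3 in NSCs and highest in AGES, at 82.3% ± 3.3. Itpr3 reached 14.7% ± 5.2 in AdAC CellC and 7.94% ± 1.13 in AdAC direct, and at most 3.09% ± 1.54 in the other groups. With the length of the longest transcript in place of all exons, the AdAC direct shares were 49.2% for Itpr2 and 45.3% for Itpr1, so their distance there depends on the length used. The summed level of the 3 genes was 18.5 ± 1.8 CPM per kb in NSCs and 9.31 ± 1.01 to 12.1 ± 0.8 CPM per kb in the other 5 groups, lowest in AGES and highest in neoAC direct. With the longest transcript it was 30 ± 2.6 CPM per kb in NSCs, 16.3 ± 1.9 in AGES and 16.1 ± 1.1 in neoAC direct, so the order of these last 2 rests on the length used.

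**Figure D2:**
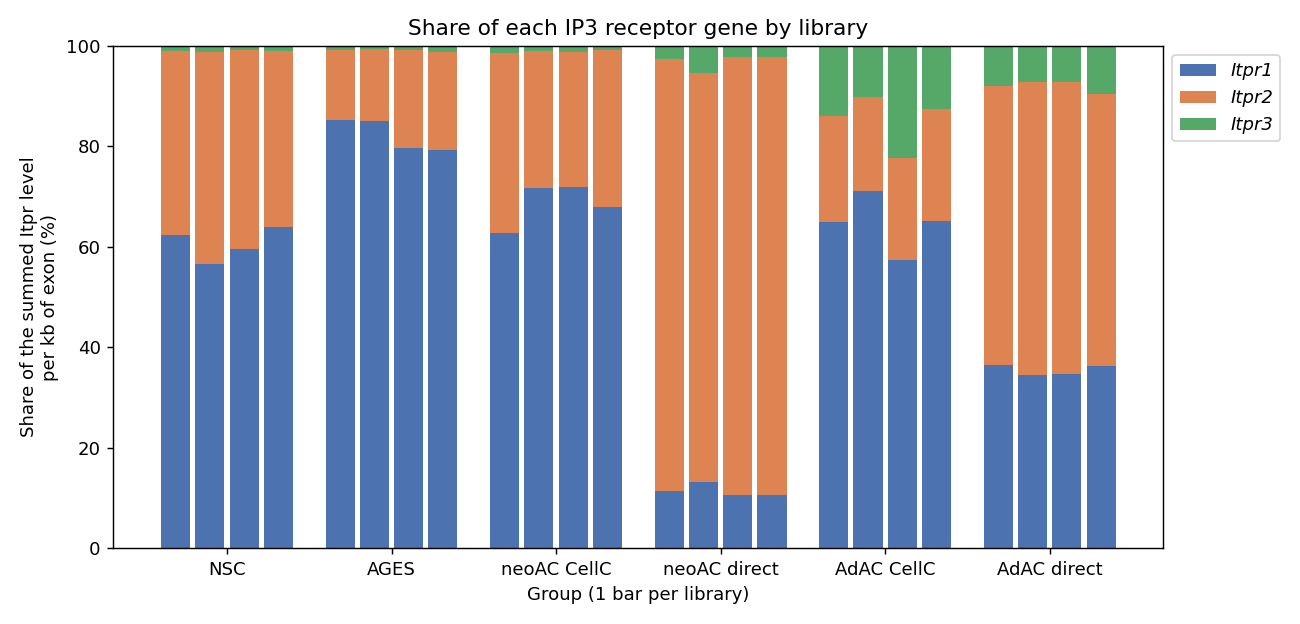
Share of Itpr1, Itpr2 and Itpr3 in their summed level per kb of exon, in percent, with 1 stacked bar for each library, grouped by sample group. Itpr2 takes 81.5% to 87.3% in neoAC direct and 54.2% to 58.4% in AdAC direct, Itpr1 79.2% to 85.3% in AGES, and AdAC CellC replicate 3 has the largest Itpr3 share, 22.2%.

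Per kb of exon, no ryanodine receptor gene exceeded a mean of 0.871 CPM per kb in a group. Ryr1 was at 19.0 ± 3.0 CPM in neoAC direct and below 1 CPM in the other groups. Ryr2 was at 15 ± 0.8 CPM in AdAC direct, 12.1 ± 1.4 CPM in neoAC CellC and 6.29 ± 1.22 CPM in neoAC direct. Ryr3 was highest in AGES, at 4.77 ± 2.00 CPM.

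Atp2a2 (chromosome 5, 122453513 to 122502225) encodes the SERCA2 pump that refills the store. Of the 10 genes it had the smallest ratio of highest to lowest group mean, 1.92-fold (492 to 945 CPM). It was at 920, 976, 942 and 941 CPM in neoAC direct and 815, 819, 798 and 857 CPM in AdAC direct. The 12 cultured astrocyte and AGES libraries had 467 to 618 CPM and NSCs 512 to 563 CPM, all below the directly isolated cells. Culture lowered it 1.75-fold in neonatal cells (log2 fold change -0.80 ± 0.07, adjusted p = 2.15e-10) and 1.67-fold in adult cells (-0.74 ± 0.07, adjusted p = 4.74e-10), with a difference between the ages of 0.06 ± 0.10 (adjusted p = 0.586). From NSCs to AGES the difference was 0.08 ± 0.07 (adjusted p = 0.338). It passed with DESeq2 size factors (0.17, adjusted p = 0.0426) and the DESeq2 Wald test (0.17, adjusted p = 0.0115). It also passed with at least 10 counts in every library (0.19, adjusted p = 0.0152). AGES, neoAC CellC, NSCs and AdAC CellC followed each other in level with no neighbours that differed beyond their spread. AGES passed the test against AdAC CellC at 1.16-fold (0.21 ± 0.07, adjusted p = 0.00884), but libraries overlapped, the call was lost with at least 10 counts in every library (0.11, adjusted p = 0.157) and the sign turned to -0.01 with library sizes alone. The small difference between neoAC direct and AdAC direct (1.15-fold, adjusted p = 0.0123) had an adjusted p of 0.107 under that scaling.

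Within its family Atp2a2 provided 94.2% ± 0.2 of the summed level per kb in AdAC direct, 97.9% ± 0.6 in AdAC CellC and 99.1% or more in the other groups. The remainder was mostly Atp2a3, a SERCA gene of blood, endothelial and epithelial cells, which was at 43.5 ± 2.0 CPM in AdAC direct, 8.60 ± 2.21 CPM in AdAC CellC and 7.30 ± 4.92 CPM in neoAC direct. Atp2a1, the pump of fast skeletal muscle, did not exceed 0.421 ± 0.13 CPM. Gm43361, which overlaps Atp2a2 on the opposite strand, had at most 6 counts.

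Across the orders of the 6 levels of each gene, 34 of 50 pairs of neighbours passed the test. Of all genes tested, 68.6% passed for the difference in the change with culture between ages, and between pairs of groups outside the 7 comparisons below the shares were 80.4% for AGES against AdAC direct, 73.8% for AGES against neoAC direct, 77.3% for NSC against AdAC CellC, 86.2% for NSC against AdAC direct, 80.6% for NSC against neoAC CellC, 80.0% for NSC against neoAC direct, 74.0% for neoAC CellC against AdAC direct and 70.7% for neoAC direct against AdAC CellC. Most genes thus differed between most groups. Neighbours were picked for each gene by rank in these same data, so the 34 of 50 cannot be set against these shares of fixed pairs. No share of neighbour pairs over all genes was computed. The counts of the 10 genes below are read against the share of all genes in the same comparison.

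The change with culture was compared at each age. In adult cells all 10 genes passed the test, 4 higher in culture (Grm5, P2ry1, Itpr1 and Itpr3) and 6 lower (Grm3, Adra1a, Adra1b, Ednrb, Itpr2 and Atp2a2), where 38.8% of all genes tested were higher and 39.2% lower. In neonatal cells 2 were higher (P2ry1 and Itpr1), 6 were lower (Grm3, Grm5, Ednrb, Itpr2, Itpr3 and Atp2a2) and the 2 Adra1 genes did not pass, where 34.4% of all genes were higher and 31.3% lower. The median log2 fold change of the 10 genes was -0.73 in adult and -1.27 in neonatal cells, against medians of 0.00 and 0.04 over all genes. The change differed between the ages for 6 of 10 genes, near the 68.6% of all genes. Grm3, Itpr2 and Atp2a2 did not pass that test. Adra1b, at -0.75 ± 0.34, was just outside it (adjusted p = 0.0534) and passed under 6 of the 7 settings other than leaving out a library. Marker sums of other cells moved with culture as well. In adult cells the oligodendrocyte sum differed by the amounts given above. The fibroblast sum was 81.0 to 97.0 CPM in AdAC direct against 1009 to 1439 CPM in AdAC CellC. The mural sum was 325 to 342 CPM in AdAC direct against 873 to 1042 CPM in AdAC CellC. The sum of 6 ependymal markers was 1199 to 1333 CPM in AdAC direct against 249.3 to 362.9 CPM in AdAC CellC, that of 10 neuronal markers 49.6 to 61.7 against 181 to 254 CPM, and that of 5 proliferation markers 17.5 to 21.4 against 736 to 899 CPM. In neonatal cells the ependymal sum went the other way, at 140 to 222 CPM in neoAC direct against 1540 to 1962 CPM in neoAC CellC, and the proliferation sum was 271 to 432 against 692 to 927 CPM. The sum of 7 neural stem cell markers moved in opposite directions at the 2 ages, as Grm5 did. It was 6657 to 8474 CPM in neoAC direct against 1738 to 2563 CPM in neoAC CellC. In adult cells it was 502 to 599 CPM in AdAC direct against 1747 to 2091 CPM in AdAC CellC. The sum of 11 astrocyte markers was 16600 to 17420 CPM in AdAC direct against 1004 to 1522 CPM in AdAC CellC. In neonatal cells this sum was 21810 to 24640 CPM in neoAC direct against 7631 to 8844 CPM in neoAC CellC. The part of these cells, astrocytes included, in these changes was not tested.

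**Figure D3:**
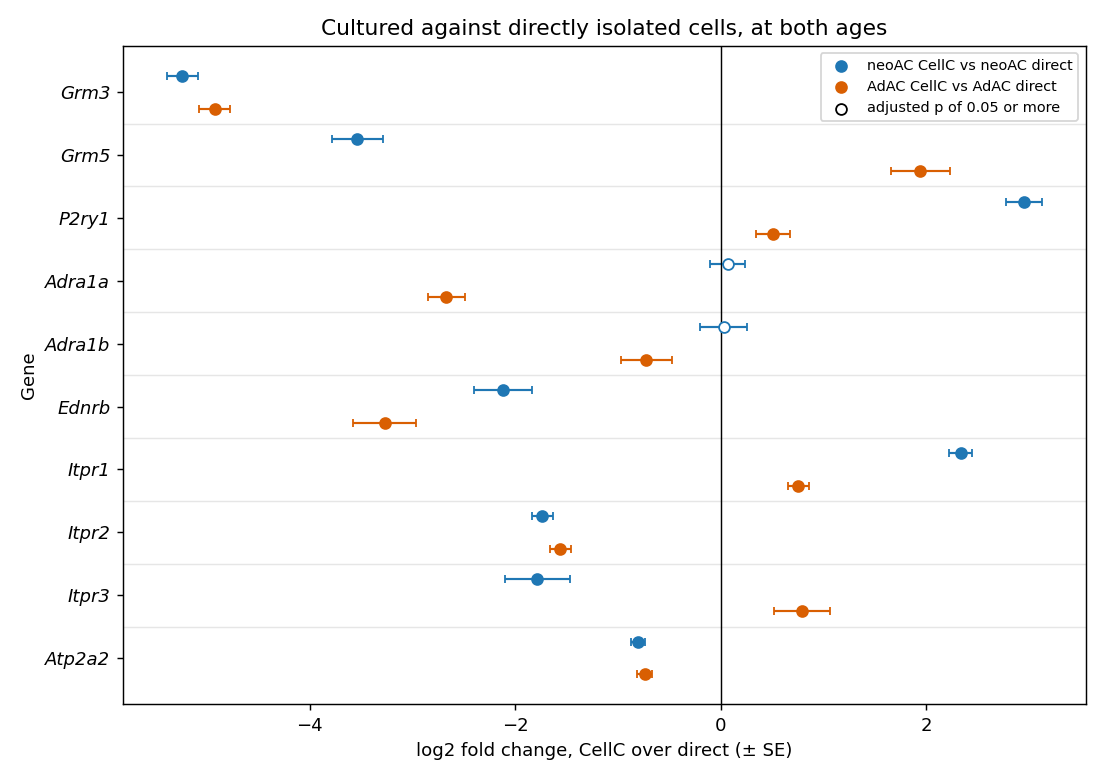
Log2 fold change of each gene between cultured and directly isolated cells, neonatal in blue and adult in orange, with bars of 1 SE; filled points passed the test (adjusted p under 0.05) and open points did not. Grm5 and Itpr3 lie on opposite sides of 0 at the 2 ages, and Grm3, Ednrb, Itpr2 and Atp2a2 lie below 0 at both.

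Differentiation from NSCs to AGES gave 3 genes higher (P2ry1, Adra1b and Ednrb) and 5 lower (Grm3, Grm5, Itpr1, Itpr2 and Itpr3), against 31.7% and 34.0% of all genes. Adra1a and Atp2a2 did not pass. The median of the 10 genes was -0.85 and that of all genes 0.00. The sum of 5 proliferation markers was 3098 to 3227 CPM in NSCs and 25.3 to 29.8 CPM in AGES, and its part in these differences was not tested.

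AGES were then set against both cultures of primary astrocytes. Against AdAC CellC, 4 genes were higher (P2ry1, Adra1b, Ednrb and Atp2a2) and 5 lower (Grm3, Grm5, Adra1a, Itpr2 and Itpr3), where 31.0% of all genes were higher and 45.2% lower. In this comparison the median of all genes was itself -0.23, and that of the 10 genes -0.14. Against neoAC CellC only P2ry1 was higher, where 34.1% of all genes were, and Grm3, Grm5, Adra1a, Ednrb and Itpr2 were lower, where 40.5% were. Adra1b, Itpr1, Itpr3 and Atp2a2 did not pass. The 2 comparisons share the AGES libraries. Ednrb lay on opposite sides in them, and the receptor genes Grm3, Grm5 and Adra1a were lower in AGES in both. With library sizes alone the median of all genes moved to -0.45 against AdAC CellC and -0.37 against neoAC CellC, and Itpr1 and Atp2a2 then turned to small negative values in both. Marker sums differed between these groups too. In AdAC CellC, neoAC CellC and AGES the mean oligodendrocyte sum was 8274, 299.9 and 31.2 CPM, and the fibroblast one 1286, 446 and 24.7 CPM. The mural means were 952, 480 and 6.55 CPM, the ependymal 303, 1750 and 65 CPM, and the proliferation 793, 793 and 27.2 CPM. The astrocyte sums given above were highest in AGES. Their part in these differences was not tested.

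**Figure D4:**
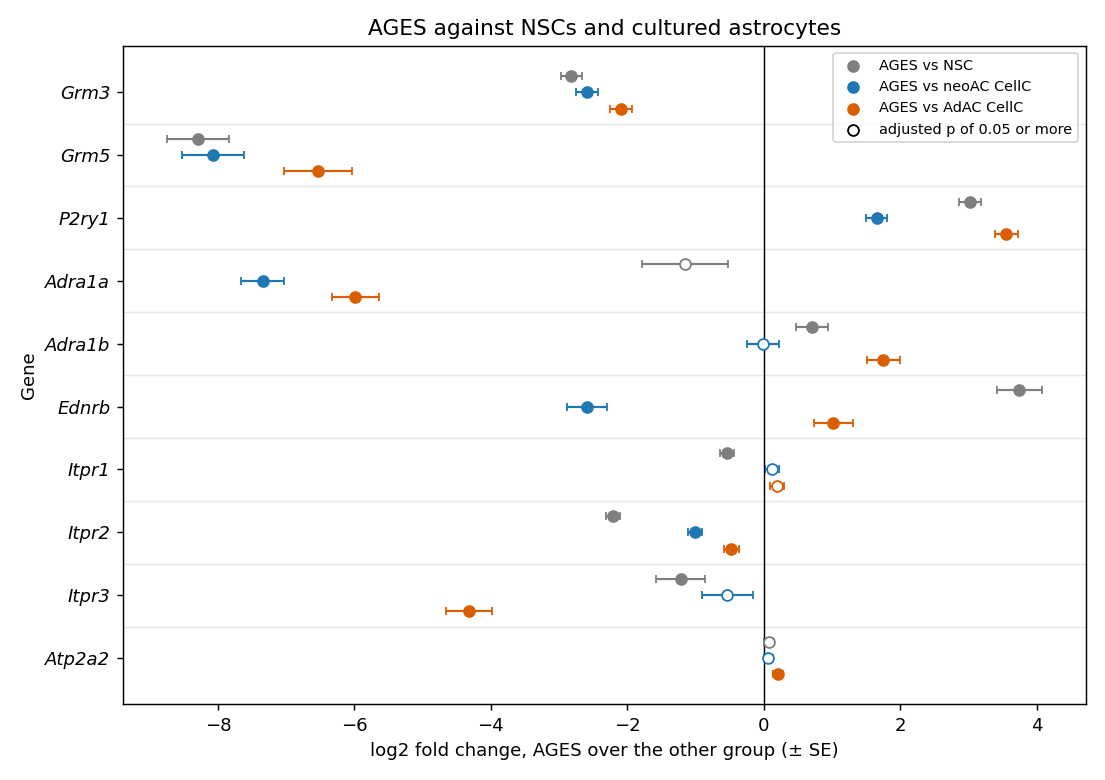
Log2 fold change of each gene in AGES over NSCs (grey), neoAC CellC (blue) and AdAC CellC (orange), with bars of 1 SE; filled points passed the test and open points did not. P2ry1 lies above 0 in all 3; the values of Grm5 and Adra1a rest on 10 and 5 summed counts in AGES and depend on the model's prior count.

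For age, directly isolated neonatal cells had 6 genes higher than adult ones (Grm3, Grm5, Adra1b, Ednrb, Itpr2 and Atp2a2) and 4 lower (P2ry1, Adra1a, Itpr1 and Itpr3), where 35.0% of all genes were higher and 36.4% lower. In culture 7 genes were higher in neonatal cells (Grm3, Grm5, P2ry1, Adra1a, Adra1b, Ednrb and Itpr2), Itpr3 was lower, and Itpr1 and Atp2a2 did not pass, where 28.5% and 35.2% of all genes were higher and lower. Atp2a2, at 0.14 ± 0.07 with no overlap of libraries, passed under 6 of the 7 settings other than leaving out a library, at 0.22 to 0.24. The medians were 0.45 and 0.95, against 0.00 and -0.08 for all genes. Grm3 in culture, at 1.41-fold (adjusted p = 0.00258), passed with overlapping libraries. The oligodendrocyte sums separate these ages too. Among directly isolated cells so did the sum of 7 neural stem cell markers, at 6657 to 8474 CPM in neonatal and 502 to 599 CPM in adult cells, and the ependymal sums above, and their part in the age differences, that of Grm5 included, was not tested.

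**Figure D5:**
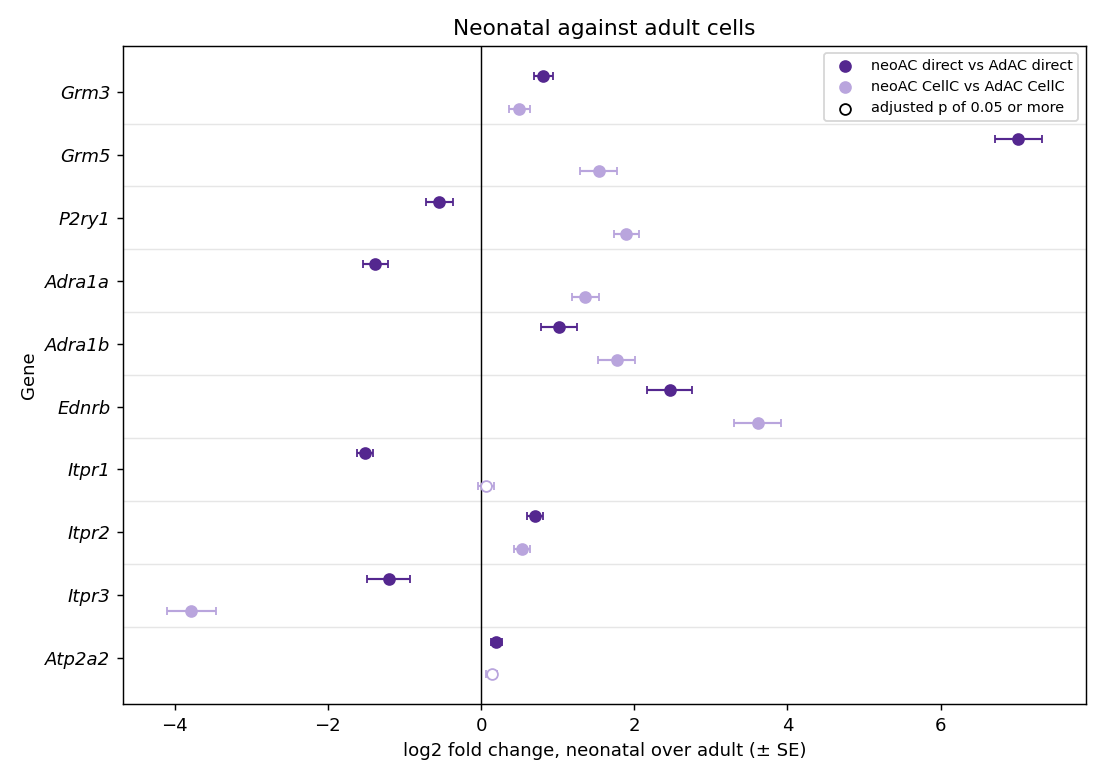
Log2 fold change of each gene between neonatal and adult cells, directly isolated (dark) and cultured (light), with bars of 1 SE; filled points passed the test and open points did not. P2ry1 and Adra1a change sides between directly isolated and cultured cells, and Grm5 has the largest value, 7.01, among directly isolated cells.

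The other genes of the pathway are given by list, with the members of a list that belong to the 10 genes counted in it. Marker sums of other cells differ between the groups, as given above, and their part in the list counts was not tested. Each count is to be read against the shares of all genes that were higher and lower in the same comparison: 38.8% and 39.2% in adult culture, 34.4% and 31.3% in neonatal culture, 31.7% and 34.0% for AGES over NSCs, 31.0% and 45.2% over AdAC CellC, 34.1% and 40.5% over neoAC CellC, and for neonatal over adult cells 35.0% and 36.4% directly and 28.5% and 35.2% in culture. Of 24 Gq-coupled receptor genes tested, 14 were higher and 8 lower in cultured than in directly isolated adult cells. In neonatal cells 8 were higher and 6 lower. Adult culture raised F2rl1, a protease-activated receptor gene, by 4.49 ± 0.36 log2 (adjusted p = 3.58e-11), and lowered Hrh1, the histamine H1 receptor gene, by -4.86 ± 0.22 (adjusted p = 7.56e-16). Hrh1 fell in neonatal cells too (-3.09 ± 0.21, adjusted p = 2.91e-12). AGES had 17 of these 24 genes lower than AdAC CellC and 16 lower than neoAC CellC, with 6 and 5 higher, and medians of -3.02 and -2.45. Lpar1, the lysophosphatidic acid receptor gene, was lower in both (-5.90 ± 0.17 and -4.94 ± 0.17, adjusted p = 2.29e-20 and 6.00e-19). From NSCs to AGES 10 were higher and 5 lower, among the latter the muscarinic receptor gene Chrm3 (-4.69 ± 0.22, adjusted p = 8.76e-16). With age, 9 were higher and 6 lower in neonatal directly isolated cells, and 10 higher and 11 lower in neonatal cultures.

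Of 16 ATP and adenosine receptor genes, AGES fell below AdAC CellC in 14 and lay above it in 2, P2ry1 and Adora1 (4.17 ± 0.12, adjusted p = 2.28e-20). Against neoAC CellC 9 were lower and 4 higher, Adora1 among the latter (1.36 ± 0.11, adjusted p = 1.53e-11), and P2rx6 among the former (-8.24 ± 0.20, adjusted p = 5.49e-22). From NSCs to AGES 5 were higher and 3 lower. Culture gave 5 higher and 9 lower in adult cells and 6 higher and 5 lower in neonatal ones. P2rx6 fell in adult culture (-2.61 ± 0.12, adjusted p = 9.88e-16) and rose in neonatal culture (2.03 ± 0.12, adjusted p = 1.89e-13), and Adora2b fell in both (-2.80 ± 0.22 and -2.13 ± 0.21, adjusted p = 2.35e-11 and 3.60e-09). Neonatal cells had 2 higher and 8 lower than adult ones directly, and 4 higher and 10 lower in culture. The mean sum of the 7 microglial markers, P2ry12 among them, was 24.8 CPM in AdAC CellC, 6.18 in neoAC CellC and 0.543 in AGES. Its part in the counts of this list was not tested.

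Between receptor and channel lie 21 genes for G proteins, phospholipase C and scaffolds. In adult culture 7 were higher and 9 lower, in neonatal culture 5 and 10. The phospholipase gene Plcb1 fell in adult culture (-2.18 ± 0.13, adjusted p = 7.59e-14) and Plcb3 in neonatal culture (-1.70 ± 0.10, adjusted p = 7.41e-14). Homer1, a scaffold of the glutamate receptor encoded by Grm5, rose in adult culture (1.18 ± 0.09, adjusted p = 1.27e-11), and fell from NSCs to AGES (-1.32 ± 0.09, adjusted p = 1.12e-12). In that last step 5 genes were higher and 6 lower, with Plcd3 up (3.51 ± 0.20, adjusted p = 2.24e-14). Set against AdAC CellC, AGES were higher in 7 and lower in 11, and set against neoAC CellC, in 7 and 9. The age comparisons gave 10 higher and 4 lower in neonatal directly isolated cells, and 5 and 10 in culture.

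For IP3 breakdown and IP3 receptor partners 13 genes were tested. Ahcyl1, which encodes the IP3 receptor regulator IRBIT, fell in culture at both ages (-1.52 ± 0.08 in adult and -1.07 ± 0.08 in neonatal cells, adjusted p = 3.64e-15 and 6.19e-12). The list had 4 higher and 6 lower in adult culture and 4 and 7 in neonatal culture. From NSCs to AGES 7 were higher and 4 lower, with Mrvi1, a partner of the type 1 receptor, up (6.51 ± 0.49, adjusted p = 1.40e-11) and Bok down (-4.37 ± 0.25, adjusted p = 7.84e-14). Set against AdAC CellC, 5 were higher in AGES and 5 lower, and set against neoAC CellC, 7 and 5. Neonatal cells had 6 higher and 5 lower than adult ones directly and 5 and 4 in culture.

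Store release and refilling had 21 genes tested, the Itpr, Ryr and Atp2a genes among them. In adult culture 9 were higher and 9 lower, and in neonatal culture 9 and 8. Orai2, a subunit of the store-operated channel, rose in both (1.84 ± 0.11 and 1.96 ± 0.11, adjusted p = 6.90e-14 and 6.65e-14). From NSCs to AGES 6 were higher and 11 lower. The store sensor gene Stim2 fell there (-2.27 ± 0.08, adjusted p = 6.17e-18) while Stim1 rose (0.98 ± 0.09, adjusted p = 3.55e-10). Set against AdAC CellC, AGES were higher in 5 and lower in 11, and set against neoAC CellC, in 4 and 10, with Orai2 lower in each (-2.48 ± 0.11 and -2.31 ± 0.11, adjusted p = 2.43e-16 and 9.66e-16). Neonatal cells had 9 higher and 10 lower than adult ones directly, and 8 and 8 in culture.

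Of 20 genes for calcium extrusion and mitochondrial uptake, 10 were higher and 3 lower in AGES than in NSCs. The sodium-calcium exchanger gene Slc8a1 rose there (6.78 ± 0.22, adjusted p = 4.58e-19). Culture gave 9 higher and 8 lower in adult cells and 8 and 7 in neonatal ones. Slc24a4, another exchanger gene, moved in opposite directions, down in adult culture (-3.07 ± 0.20, adjusted p = 3.88e-13) and up in neonatal culture (4.96 ± 0.22, adjusted p = 1.12e-15). Set against AdAC CellC, AGES were higher in 7 and lower in 8, and in 9 and 9 against neoAC CellC. Neonatal cells had 8 higher and 6 lower than adult ones directly and 9 and 8 in culture.

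Of 20 genes for other calcium entry, 14 were lower and 5 higher in AGES than in AdAC CellC, and 13 lower and 5 higher than in neoAC CellC. The mechanosensitive channel gene Piezo1 was lower in AGES than in AdAC CellC (-5.94 ± 0.32, adjusted p = 6.72e-14). Piezo1 rose in culture at both ages (4.68 ± 0.29 in adult and 1.07 ± 0.26 in neonatal cells, adjusted p = 1.35e-12 and 0.000874). The counts were 8 higher and 7 lower in adult culture, 4 and 6 in neonatal culture, and 5 and 3 from NSCs to AGES. Neonatal cells had 8 higher and 3 lower than adult ones directly, and 8 and 7 in culture.

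Of the endothelin system 6 genes were tested, Ednrb among them. In adult culture Edn1 rose (2.95 ± 0.31, adjusted p = 4.19e-09) and 3 genes fell, among them Ednra (-1.40 ± 0.14, adjusted p = 9.91e-10). In neonatal culture 2 were higher and 3 lower. For AGES the counts of higher and lower genes were 1 and 2 against NSCs, 2 and 4 against AdAC CellC, and 1 and 5 against neoAC CellC. Ece2, which encodes an endothelin-converting enzyme, was lower in AGES in all 3 (-2.35 ± 0.14, -2.86 ± 0.14 and -3.41 ± 0.14, adjusted p = 5.22e-14, 7.13e-16 and 2.29e-17). In neonatal directly isolated cells 4 were higher than in adult ones and the other 2 did not pass. In culture 4 were higher and 2 lower.

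The median log2 fold change of each list was set beside that of all genes. In AGES against AdAC CellC, where the median of all genes was -0.23, it was -3.02 for the Gq-coupled receptors, -2.36 for the ATP and adenosine receptors, -1.64 for the endothelin system and -3.35 for other calcium entry. The medians of the remaining lists were -0.22 for G proteins and phospholipase C, -0.15 for IP3 breakdown and partners, -0.47 for the store and 0.03 for extrusion. Against neoAC CellC (all genes -0.07) the same 8 medians were -2.45, -1.62, -3.00, -3.77, -0.05, 0.27, -0.31 and 0.07. Genes with few counts in AGES enter these medians with fitted values that depend on the model's prior count. In adult culture (all genes 0.00) the medians were, in that order, 1.27, -0.38, -0.79, 0.47, 0.08, -0.41, 0.09 and 0.25, and in neonatal culture (all genes 0.04) they were 0.05, 0.12, -0.57, -0.09, -0.23, -0.55, 0.14 and -0.04. From NSCs to AGES (all genes 0.00) they lay between -0.57 for the ATP and adenosine receptors and 0.61 for the Gq-coupled receptors.

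Over the 24 libraries, on log2 CPM, the gene most like each of the 10 was found by Pearson correlation among genes with at least 10 CPM in some group. It was Syp for Grm3 (r = 0.982), Plekhf2 for Grm5 (0.962), Prune2 for P2ry1 (0.979), Tspoap1 for Adra1a (0.992), Ctnnd2 for Adra1b (0.860), Raver2 for Ednrb (0.974), Matn2 for Itpr1 (0.967), Dchs1 for Itpr2 (0.954), Cmip for Itpr3 (0.951) and Gabbr1 for Atp2a2 (0.965). Among the 10 genes themselves the closest pairs were Grm3 with Atp2a2 (0.880) and with Itpr2 (0.849). Itpr1 ran against Atp2a2 (-0.856), Grm3 (-0.815) and Ednrb (-0.815), and P2ry1 against Grm3 (-0.832). The 24 points fall into 6 groups of 4 that share their source, so these values describe the group means more than they do single libraries.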

How the data were processed

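Total RNA with an integrity number of at least 7 was made into stranded mRNA libraries (TruSeq, 100 ng) and sequenced as read pairs of 100 nt. The authors demultiplexed with bcl2fastq 2.20, aligned to GRCm38 with STAR 2.7.3a (up to 20 alignments a read) and counted exons per gene with featureCounts on Gencode vM12. These counts were deposited without normalization, and the strand setting of the counting is not given in the sources used here, so overlapping genes on the opposite strand are given with their counts.

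Samples were grouped by their labels. One model of all 6 groups was fitted with edgeR 4.0.16 in R 4.3.3 (TMM, filterByExpr, robust quasi-likelihood F test, two-sided), with Benjamini-Hochberg adjustment over the 19691 genes tested and a threshold of 0.05. SE was taken as the absolute log2 fold change over sqrt(F). Levels per kb use the union of exons in Gencode vM21, in which 49412 of the 49671 counted genes were found. A count of 3 was taken as the floor, which is 0.0786 to 0.117 CPM. The test was checked on simulated data in which a small share of genes changed, in AGES only. That setting does not cover comparisons in which most genes differ, as many did here. Alternatives were DESeq2 1.42.0 (its size factors and its Wald test), library sizes alone, no filter, at least 10 counts in every library, only the compared groups, a replicate block, the longest transcript as length, and leaving out each library. The 10 genes and the lists were chosen with earlier results of these data known. Of each list, up to 2 genes a direction were open to naming: those with the largest change among genes past the threshold, whose libraries did not overlap and whose higher group had a mean of 10 CPM or more. Paralogs and ligands of the 10 genes were named by level, and some genes that this rule covers are not reported here.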

Additional observations from a re-analysis of the deposited data

Results flagged for a closer look

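In 4 of the 60 sets of 4 libraries (10 genes in 6 groups), 1 library stood apart from the other 3, with a gap to its nearest neighbour over the whole range above Dixon's 95% critical value. Chance gives about 1 in 20 such sets. They were the highest AdAC direct library of Grm3 (0.842, at 311 CPM), the lowest AdAC direct library of Adra1a (0.886, at 16.3 CPM), the lowest neoAC CellC library of Itpr1 (0.843, at 114 CPM) and the highest neoAC direct library of Itpr3 (0.845, at 6.42 CPM).

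The change with culture differed between adult and neonatal cells for 6 genes, by edgeR's test of the difference itself (adult minus neonatal, log2). Grm5 (5.48, adjusted p = 1.06e-11) and Itpr3 (2.57, adjusted p = 7.33e-06) were positive. P2ry1 (-2.44, adjusted p = 1.53e-09), Adra1a (-2.74, adjusted p = 3.13e-10), Itpr1 (-1.58, adjusted p = 8.77e-10) and Ednrb (-1.15, adjusted p = 0.0131) were negative. Age, dissociation kit and dissection cannot be told apart in these differences.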

How the results depend on the processing

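No count of the 10 genes past the threshold moved by more than 1.5 times under any alternative or with any library left out. Requiring 10 counts in every library left 8 of the 10 genes to test. Without AGES replicate 3 the call of Adra1b against NSCs was lost (0.24), as was that of Itpr3 in adult culture without AdAC CellC replicate 3 (0.53). The former was also lost with only the compared groups (adjusted p = 0.0599), and Atp2a2 in AGES against AdAC CellC with 10 counts in every library (adjusted p = 0.157). Signs turned only in differences that were small, and 1 of these passed the test after turning (Atp2a2 in AGES against neoAC CellC with library sizes alone, adjusted p = 0.00589). Without a filter Adra1b was -0.0339 between neoAC CellC and neoAC direct and 0.0267 between AGES and neoAC CellC, and with only the compared groups the former was -0.0020. With library sizes alone Itpr1 and Atp2a2 were -0.0277 and -0.0116 in AGES against AdAC CellC and -0.1734 and -0.2309 against neoAC CellC, and the difference in culture change of Atp2a2 between ages was -0.0885. With 10 counts in every library the last 3 were -0.0761, -0.1329 and -0.0703, and with DESeq2, by size factors or Wald test, the difference for Atp2a2 was -0.0325. With each library left out, Adra1a in neonatal culture ranged from -0.0344 to 0.2257, Adra1b there from -0.0467 to 0.0768, and Adra1b in AGES against neoAC CellC from -0.4819 to 0.1463. Those causes were not tested. Same-numbered replicates deviated together at correlations of -0.095 to 0.106, so the numbers were not read as pairs. With a replicate block the counts of genes past the threshold stayed at 8, 10, 8, 9, 6, 8 and 10, and the test of the difference between ages called 7 in place of 6, Adra1b being added (-0.77). Depth limits Grm5 in AGES and Adra1a in AGES and NSCs to a few counts.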
